A study of Mus musculus with 60 samples.

Results

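The genes described here are 34 genes whose products build or run striated muscle, measured in 60 carcinomas of mouse back skin. They were taken from a fixed list of contractile, Z disc, calcium handling and energy supply genes, with 1 probe set per gene, the one of highest mean. All 34 of the 34 listed genes were on the array, which held 18194 genes with a symbol of their own. The carcinomas came from 55 FVBBX mice, offspring of SPRET/Ei by FVB/N hybrids bred back to FVB/N, so that each mouse was genetically its own, and tumors had been induced on the dorsal skin with DMBA, a mutagen, and TPA, a tumor promoter. All groups below share this treatment, the age at collection is not given in the sources used here, and no normal skin or muscle was analysed here. The labels called 38 tumors of 35 mice squamous cell carcinoma (SCC), with 13 well, 13 moderately and 9 poorly differentiated by mice, called 14 tumors of 13 mice spindle carcinoma, and gave 8 tumors of 7 mice no histology. Further labels gave lymph node status (15 mice positive, 19 negative), p53 mutation (14 mice mutant, 41 not) and the number of papillomas at 20 weeks (17 mice with under 2 are called resistant, 16 with over 7 sensitive).

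Striated muscle fibers contract when calcium released from the sarcoplasmic reticulum lets myosin of the thick filament pull on actin of the thin filament, with troponin as the switch and the Z disc as the anchor. Fast and slow fibers use different genes for the same parts, so that a muscle's transcripts also show its fiber type. Mouse back skin lies on a thin sheet of skeletal muscle, the panniculus carnosus, beneath dermis and fat, and an excised skin tumor can hold some of it, either grown into by the tumor or taken along at dissection. Which of the latter applied in any tumor was not tested, since the arrays measure the whole piece of tissue. Fewer muscle cells and less RNA per muscle cell also cannot be told apart in such samples.

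Promoter sequences of 27 of the 34 genes were in the RefSeq table for GRCm38.p6, as 250 bases before to 50 after a start site. The sequences of 4 of them are shown because they span the patterns below: Ckm followed the other muscle genes closely, Tnnc2 had the widest range, and Tnni1 and Eno3 followed the others poorly. Capitals mark each match to CANNTG, the E-box letters that myogenic transcription factors bind.
Ckm (chr7:19410844-19411143, plus strand): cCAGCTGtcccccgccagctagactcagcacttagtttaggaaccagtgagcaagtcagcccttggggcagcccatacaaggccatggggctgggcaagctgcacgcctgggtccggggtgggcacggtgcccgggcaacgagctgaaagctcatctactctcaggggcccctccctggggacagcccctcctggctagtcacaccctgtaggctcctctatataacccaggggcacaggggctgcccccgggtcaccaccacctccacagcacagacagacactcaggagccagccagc
Tnnc2 (chr2:164779685-164779984, minus strand): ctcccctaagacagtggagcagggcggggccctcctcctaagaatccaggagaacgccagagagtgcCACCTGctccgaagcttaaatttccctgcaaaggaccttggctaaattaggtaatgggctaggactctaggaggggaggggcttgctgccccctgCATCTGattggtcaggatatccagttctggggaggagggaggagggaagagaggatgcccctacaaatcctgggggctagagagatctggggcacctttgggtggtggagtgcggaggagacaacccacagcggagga
Tnni1 (chr1:135799171-135799470, plus strand, the first of 2 start sites listed): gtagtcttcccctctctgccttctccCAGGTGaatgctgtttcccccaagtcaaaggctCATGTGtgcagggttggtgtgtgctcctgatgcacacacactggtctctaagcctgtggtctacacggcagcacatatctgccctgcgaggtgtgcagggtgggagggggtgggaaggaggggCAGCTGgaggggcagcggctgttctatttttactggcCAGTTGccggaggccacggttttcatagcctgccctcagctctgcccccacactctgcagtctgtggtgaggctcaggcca
Eno3 (chr11:70656926-70657225, plus strand): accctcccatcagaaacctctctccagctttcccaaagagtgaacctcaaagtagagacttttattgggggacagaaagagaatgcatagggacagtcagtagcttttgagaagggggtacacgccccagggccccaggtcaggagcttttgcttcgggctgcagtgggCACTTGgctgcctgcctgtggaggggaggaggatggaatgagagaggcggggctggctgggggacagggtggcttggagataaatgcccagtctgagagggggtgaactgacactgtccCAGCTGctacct
On both strands, CANNTG occurred in the promoters of 23 of the 27 muscle genes (85.2%) and of 20265 of the 27025 genes in the table. The narrower form CAGCTG, which is a case of CANNTG, occurred in 15 of 27 (55.6%) against 18.3% of all genes. The MEF2 motif was present in 4, Myh1, Myh4, Pvalb and Ttn (14.8% against 3.7% of all genes), and the CArG box in 3, Acta1, Ldb3 and Myh4 (11.1% against 1.81%). The M-CAT letters CATTCCT were found in 2, Acta1 and Mybpc2 (7.41% against 6.15%), and TATAAA in 7 (25.9% against 15.7%). CAGCTG was present in the Ckm, Tnni1 and Eno3 promoters but not in that of Tnnc2, which like Ckm followed the others closely. Among these 4 its presence therefore did not mark the genes that followed the others. These are matches of letters, not measured binding.

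Values are log2 expression levels, so that a difference of 1 is 2-fold, and they are compared between tumors for a given gene and never between genes. Several facts of the series bear on the results. Xist and Y-linked transcripts went against the sex label, showed both sexes or showed neither on 12 of the 60 arrays, among them SCC 10, SCC 24, SCC 25, spindle 8 and spindle 9. SCC 21 and SCC 22, from different mice, were more alike than all other arrays of different mice (r = 0.7655 after centering each probe set, the next pair 0.6867), and SCC 18 and no histology 3 were the most alike on plain values (r = 0.9907). In SCC 21 and SCC 22 the 34 genes differed by a median of 0.239, and their means were 5.36 and 5.40. The keratinocyte genes on a list of markers, Krt5, Krt14, Krt15, Trp63, Cdh1, Dsp and Itgb4, were all lower in spindle carcinomas than in SCC (7 of 7 past an adjusted p of 0.05, limma, beside 11.0% of all genes lower). SCC 24 had the lowest mean of these genes of all tumors (4.91), while spindle 1 (11.14) and spindle 9 (11.33), for example, were above the median of 10.85.

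The level of striated muscle transcripts differed greatly between carcinomas. The mean of the 34 genes ran from 4.57 in no histology 6 to 9.51 in SCC 32, with a median of 6.08 over the 60 tumors and the middle of the tumors between 5.74 and 6.46. The largest gap between neighbors in the order, 0.97, followed rank 2, and below rank 10 no gap was over 0.27. The highest were SCC 32 (9.51, poorly differentiated, node positive), SCC 3 (8.99) and SCC 4 (8.02), both well differentiated, node positive and from the same mouse, then spindle 1 (8.00, node negative), SCC 36 (7.72, poorly differentiated, node positive), no histology 5 (7.51) and spindle 9 (7.36, node positive). The lowest after no histology 6 were spindle 2 (4.71, node positive), SCC 37 (4.98, poorly differentiated) and no histology 8 (5.02). Poorly differentiated SCC therefore stood at both ends of the order.

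**Figure D1:**
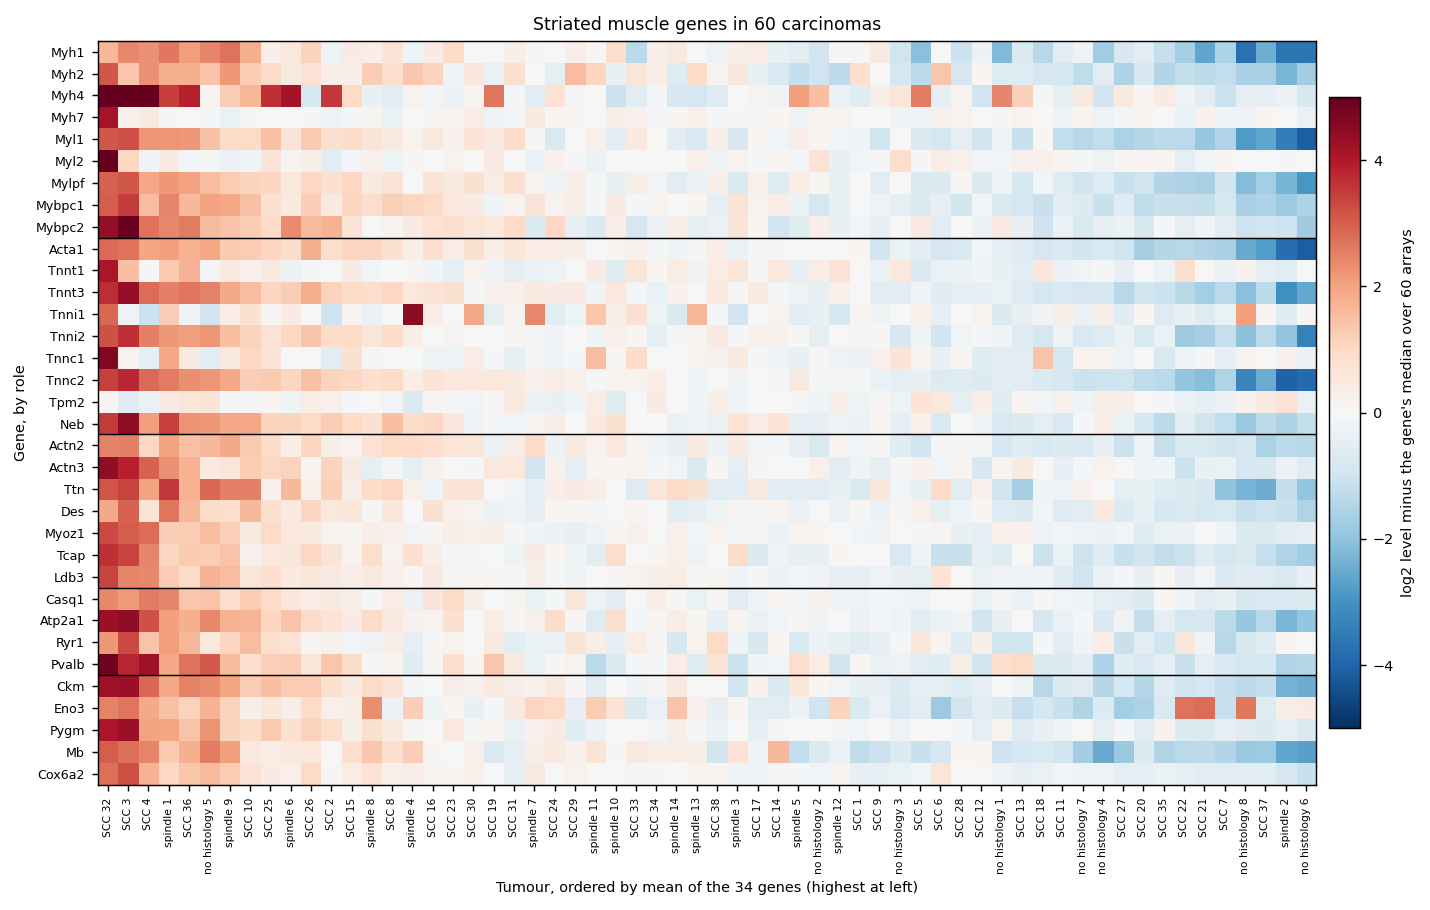
Level of the 34 genes (rows, grouped by role with lines between thick filament, thin filament and troponin, Z disc, calcium handling and energy supply) in the 60 tumors (columns, from the highest mean of 9.51 in SCC 32 to the lowest of 4.57 in no histology 6). Color is the log2 level minus the gene's median, drawn to limits of 5 in each direction; most rows are red at the left and blue at the right, while Tpm2, Tnni1, Eno3, Myh7 and Myl2 do not follow that order.

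The spread was wider than that of most genes. Over the 60 arrays the highest level was more than 10-fold above the lowest for 33 of the 34 genes and more than 100-fold for 10. The median standard deviation over arrays was 1.184 for the muscle genes that passed the filter on dim genes and 0.399 for all 12791 genes that passed. A total of 32 of the 34 passed it (above the array's median on at least 8 arrays). Myh7 was above the array median on 2 arrays and Myl2 on 1, so neither was tested.

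Thick filament genes differed widely between tumors. Myh1, the fast IIx myosin heavy chain, ran from 5.17 in no histology 8 to 11.63 in spindle 9, with a median of 8.91, an 87.6-fold range. Myl1, a fast essential light chain, ran from 4.46 to 11.82 and Mylpf, the fast regulatory light chain, from 5.22 to 11.24, both lowest in no histology 6 and highest in SCC 3. Myh4, the fastest myosin (type IIb), was dim in most tumors and at graded levels in the rest: it was above the array median on 17 tumors, at 10.17 in SCC 3, 10.03 in SCC 32 and 9.37 in SCC 4, but at 3.71 in no histology 5 and 4.82 in spindle 9, which were high for Myh1 (11.37 and 11.63). Myh2 (type IIa) ran from 2.35 to 7.74, and the myosin binding proteins Mybpc1 and Mybpc2 from 3.97 to 9.29 and from 3.01 to 9.75. Myh1, Myh2 and Myh4 are near relatives that lie side by side on chromosome 11. How far their probe sets share signal is uncertain, and a second bright Myh1 probe set, of a kind that can bind related transcripts, followed the first with r = 0.992 over the 60 arrays.

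Thin filament genes followed. Acta1, the skeletal muscle actin, ran from 5.42 in no histology 6 through a median of 9.53 to 12.38 in SCC 32, a 124-fold range. Tnnc2, the calcium-binding troponin of fast fibers, had the widest range of all, from 4.02 in spindle 2 to 11.81 in SCC 3 (220-fold), and the fast troponins Tnnt3 and Tnni2 spanned 181-fold and 134-fold. Neb, the ruler of the thin filament, ran from 2.59 to 8.88. Tpm2, a tropomyosin that smooth muscle and stromal cells also make, was the exception: it stayed between 10.95 and 12.39 (2.72-fold) and was highest in spindle 2, where most other members were low. These values are those of the probe set used. Its other probe sets, each above the array median on all 60 arrays, followed it with r = 0.912, 0.354 and 0.321.

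Among Z disc and cytoskeletal genes, Ttn, the giant spring of the sarcomere, ran from 3.77 in SCC 37 to 9.77 in spindle 1, and Actn2, the Z disc actinin, from 3.98 to 8.11. Actn3, its fast fiber relative, reached 9.42 in SCC 32 from a median of 5.00. Des, the intermediate filament of all muscle types, ran from 4.90 to 9.35. Myoz1 and Tcap, which bind at the Z disc, reached 8.99 and 9.53 in SCC 32, and Ldb3 reached 7.70 there. Among calcium genes, Atp2a1, the fast fiber calcium pump, ran from 4.64 to 11.37 and Pvalb, the calcium buffer of fast fibers, from 4.05 to 10.44, while Casq1 and Ryr1, the store protein and the release channel, covered 10.3-fold and 26.0-fold. Among energy genes, Ckm, the muscle creatine kinase, ran from 4.36 in no histology 6 through a median of 6.85 to 11.12 in SCC 3 (108-fold), Mb, the oxygen store myoglobin, from 4.15 to 9.91, Pygm, the glycogen phosphorylase of muscle, from 3.85 to 8.91, and Cox6a2, a muscle subunit of cytochrome oxidase, from 4.54 to 8.85. SCC 3 held the highest value of 16 genes and SCC 32 of 12, and no histology 6 the lowest of 11.

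Most of the genes moved together over the 55 mice. Each gene was compared with the mean of the other 33, as a description over mice that share arrays and processing. Pearson's r was over 0.8 for 25 of the 34 genes, led by Tnnt3 (0.96), Atp2a1 (0.95), Ckm (0.95), Tnni2 (0.94) and Cox6a2 (0.93). Leaving out the mice of SCC 32 and of SCC 3 and SCC 4 left 22 over 0.8 in 53 mice. The genes that followed least were Tpm2 (-0.01), Tnni1 (0.21) and Eno3 (0.49). The slow fiber genes Myh7 and Myl2 had an r of 0.53 and 0.52 that fell to -0.03 and 0.03 without those mice.

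**Figure D2:**
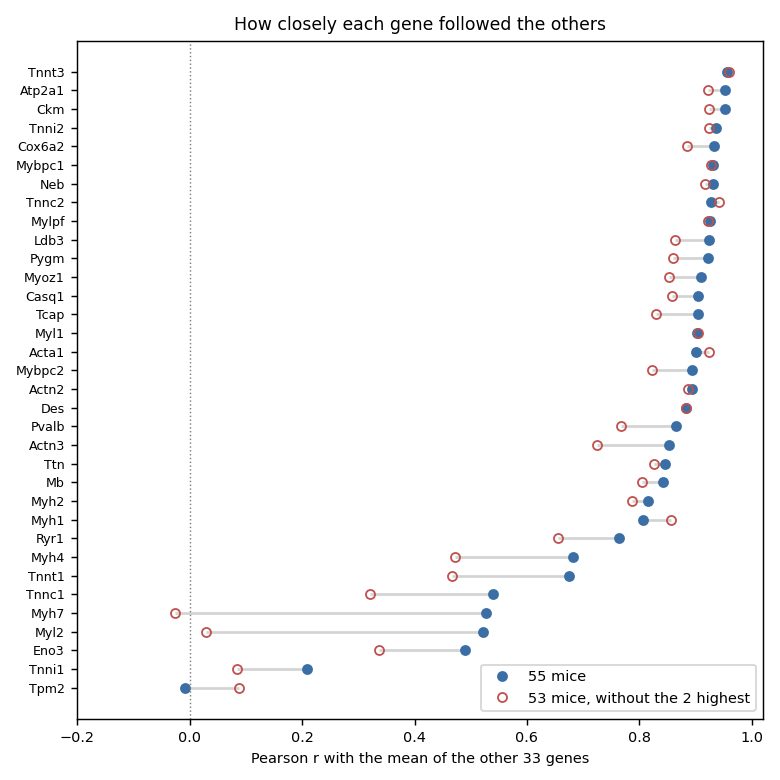
Pearson r of each gene with the mean of the other 33 genes over 55 mice (filled) and over 53 mice without those of SCC 32 and of SCC 3 and SCC 4 (open). Genes are ordered by the filled points, from Tnnt3 at 0.96 to Tpm2 at -0.01; Myh7 and Myl2 move from 0.53 and 0.52 to near 0.

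Genes outside the list were ranked by the same measure against the mean of all 34. The 12 most alike of 12759 genes were Myot (r = 0.96), Pgam2 (0.92), Myom2 (0.92), Myom1 (0.92), Cmya5 (0.90), Srl (0.90), Klhl41 (0.90), Cox8b (0.90), Trdn (0.90), Nrap (0.89), Tmod4 (0.89) and Lmod2 (0.88). Myot, Myom1, Myom2 and Nrap are sarcomere proteins, Srl and Trdn sit at the calcium store, and Pgam2 is the muscle form of a glycolytic enzyme. All but Tmod4 were on a second list of further striated muscle genes, of which 49 were measured and 30 had an r over 0.5. The median r over all genes compared was -0.01, and 22 genes were over 0.8.

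Several regulators of muscle formation were near or below the array median in most tumors. Myod1, a master regulator of the muscle lineage, was above the array median on 2 tumors (3.55 to 4.71), Pax7, the mark of muscle stem cells, on 0, and Myf5 on 0. Myog, which drives fusion of muscle precursors, was above it on 5 tumors and highest in spindle 1 (6.35). The embryonic and perinatal myosins Myh3 and Myh8, which regenerating fibers make, were above it on 2 and 1 tumors and were also highest in spindle 1 (5.94 and 5.01), which stood at rank 4 for the 34 genes as a whole. In SCC 32, with the highest muscle level, these were 3.17 for Myog, 3.40 for Myh3 and 2.84 for Myh8. Myf6, a regulator kept on in mature fibers, had an r of 0.69 with the mean of the 34 and reached 7.55 in SCC 3. Other genes of the same list were brighter: Mef2c, which many cell types make, was above the array median on all 60 tumors, Cdh15 on 27, Six4 on 25 and Chrna1 on 15. The list of myogenic and regenerating muscle genes as a whole had a median r of 0.17 over 15 measured genes, and the cardiac list a median r of 0.00 over 10 (its 10 members in no case over 0.43).

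Fast and slow fiber genes separated 1 tumor from all others. The mean of the 12 fast fiber genes (Myh1, Myh2, Myh4, Myl1, Mylpf, Tnnt3, Tnni2, Tnnc2, Actn3, Atp2a1, Pvalb and Mybpc2) was 10.38 in SCC 32 and 10.39 in SCC 3. The mean of the 5 slow fiber genes (Myh7, Myl2, Tnnt1, Tnni1 and Tnnc1) was 8.90 in SCC 32 and 4.89 in SCC 3, against a median of 4.31 over all tumors. Myl2, the slow regulatory light chain, stood at 10.37 in SCC 32 and at no more than 4.32 elsewhere. Myh7, the slow myosin heavy chain, was at 8.15 there and at 4.52 or less elsewhere, Tnnc1, the slow and cardiac troponin C, at 9.37 against 6.67 or less, and Tnnt1, the slow troponin T, at 8.33 against 5.98 or less. Of the 60 tumors, SCC 32 alone was high for all of these slow genes.

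**Figure D3:**
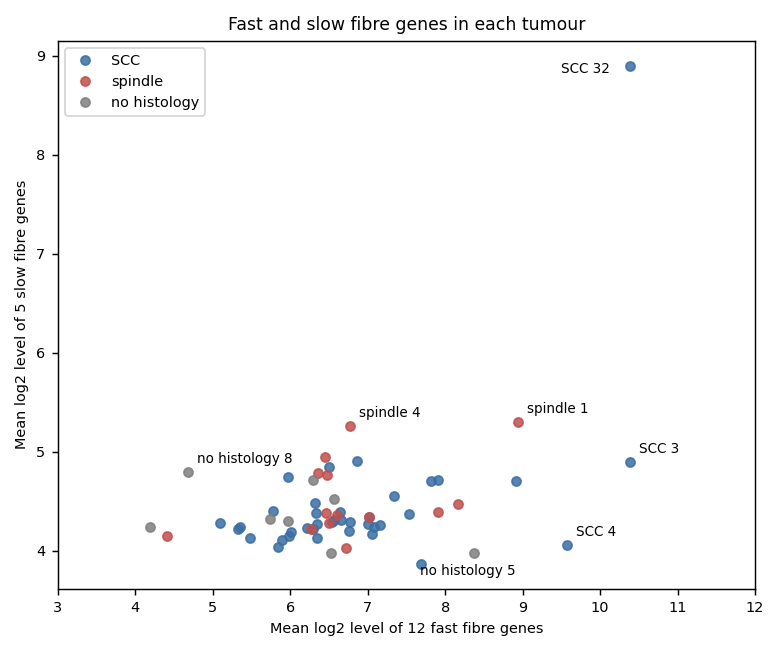
Mean log2 level of the 12 fast fiber genes (horizontal) and of the 5 slow fiber genes (vertical) in each of the 60 tumors, colored by histology. SCC 32 (10.38 and 8.90) stands alone at the upper right, while SCC 3 with an equal fast level is at 4.89 for the slow genes and spindle 4 at 5.26.

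Tnni1, the slow fiber troponin I, was high in tumors where the other slow genes were not. It reached 9.89 in spindle 4, above the 8.27 of SCC 32, and stood at 7.78 in spindle 7, 7.45 in no histology 8, 7.28 in SCC 30 and 7.05 in spindle 13, against a median of 5.39. In spindle 4 the slow list's mean was 5.26 and the fast list's 6.77. No histology 8 was among the 4 lowest tumors for the 34 genes as a whole. Tnni1 has 1 probe set on the array, so no second probe set could be set beside it. Tnnt2, the cardiac troponin T, which was chosen after its values were seen, was also highest in spindle 4 (11.20).

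Eno3, the muscle form of the glycolytic enzyme enolase, also went its own way. Its highest levels were 10.10 in SCC 21, 10.00 in SCC 22, 9.99 in SCC 3, 9.92 in no histology 8 and 9.80 in SCC 32. SCC 3 and SCC 32 were the highest tumors for the mean of the 34 genes, whereas SCC 21, SCC 22 and no histology 8 had means of 5.36, 5.40 and 5.02 over the 34. SCC 21 and SCC 22 are the near-identical arrays, so that their agreement is not 2 separate observations. Eno3 also has 1 probe set.

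Muscle genes in spindle carcinoma were compared with SCC over mice, a contrast of the mesenchymal tumor form with the epithelial one. The labels also graded 12 of the 13 spindle mice poorly and 1 moderately differentiated, against 9 of the 35 SCC mice poorly. Histology and grade therefore went largely together in this contrast. The label tumor_class 1, whose meaning is not given, was also more frequent in spindle carcinoma than in SCC. Its part was not tested. Only Eno3 differed: 1 of the 32 genes tested passed an adjusted p under 0.05 (limma, Benjamini-Hochberg over all 12791 genes), whereas 26.5% of all genes did in this comparison. It was 1 of 32 higher, beside 15.5% of all genes, and 0 of 32 lower, beside 11.0%. Over the 34 genes 17 were higher and 17 lower in spindle carcinoma, and the median difference was 0.01, beside 0.02 over all genes tested. Ckm ran from 4.48 through a median of 6.86 to 8.76 in the 13 spindle mice and from 5.43 through 6.66 to 11.09 in the 35 SCC mice. The groups overlapped over nearly the whole range, and the difference was -0.02 ± 0.38 (SE; limma adjusted p = 0.97). Acta1 ran from 5.71 through 9.59 to 11.58 in spindle and from 6.75 through 9.49 to 12.38 in SCC, with a difference of -0.0012 ± 0.385 (SE; limma adjusted p = 0.999).

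The same held across roles. In the thick filament, Myh1 ran from 5.31 through a median of 9.00 to 11.55 in the spindle mice and from 6.32 through 8.84 to 11.24 in the SCC mice (difference 0.30 ± 0.38, SE), and Myl1 from 5.13 through 8.63 to 10.78 and from 5.97 through 8.57 to 11.67 (-0.13 ± 0.40). In the thin filament, Tpm2 ran from 10.95 through 11.62 to 12.39 in spindle and from 11.15 through 11.71 to 12.36 in SCC (-0.11 ± 0.11). For each of these the groups overlapped almost fully. At the Z disc and cytoskeleton, Des ran from 5.30 through 6.35 to 9.07 and from 5.38 through 6.45 to 8.31 (-0.09 ± 0.25), and Ttn from 5.04 through 6.48 to 9.77 and from 3.77 through 6.23 to 9.37 (0.32 ± 0.37). In calcium handling, Atp2a1 ran from 4.64 through 7.13 to 8.97 and from 5.54 through 6.87 to 11.21 (0.09 ± 0.37), and Pvalb from 4.09 through 4.99 to 7.51 and from 4.63 through 5.64 to 10.44 (-0.51 ± 0.39). These groups overlapped too, none of the 7 genes passed the test, and standard errors over the 32 genes ran from 0.11 to 0.58.

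By role the median difference was -0.12 for thick filament, 0.04 for thin filament and troponin, -0.03 for Z disc, -0.15 for calcium handling and 0.05 for energy supply genes. Tnni1 was at 4.44 to 9.89 in spindle (median 5.70) and 4.35 to 8.27 in SCC (median 5.38), a difference of 0.59 ± 0.32 (SE; limma adjusted p = 0.17). The 7 mice without a histology label had a mean of the 34 genes from 5.02 to 7.51 (median 5.76), beside 4.71 to 8.00 (median 6.15) in spindle carcinoma and 4.98 to 9.51 (median 6.03) in SCC.

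Eno3 ran from 7.01 through 8.36 to 9.05 in the 13 spindle mice and from 5.49 through 6.90 to 10.10 in the 35 SCC mice. All 13 spindle mice were above the SCC median, and spindle carcinoma lacked the low values rather than holding the highest ones. The means were 8.12 ± 0.63 (SD, n = 13) and 7.21 ± 1.12 (SD, n = 35), a 1.87-fold difference of 0.91 ± 0.32 on the log2 scale (SE; limma adjusted p = 0.031). Without the 12 arrays whose sex markers went against their labels the adjusted p was 0.072 (0.89 ± 0.36, limma), and without the near-identical arrays 0.0067 (1.01 ± 0.29, limma). Against the 9 poorly differentiated SCC alone the difference was 0.07 ± 0.38 (limma adjusted p = 0.94), and there 0% of all genes passed. The median over the 32 genes tested was -0.47 in that comparison, beside 0.02 against all SCC. Leaving out spindle 4, spindle 8 with spindle 9, spindle 11 or spindle 14 each brought the adjusted p above the threshold, to between 0.051 and 0.058 (limma). Without SCC 24 it was 0.024, and without spindle 1 it was 0.046.

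Among the further striated muscle genes, 2 of the 38 tested were higher and 1 lower in spindle carcinoma, fewer than the 15.5% and 11.0% of all genes. Pfkm, a phosphofructokinase of muscle that other cells also express, was 0.77 ± 0.19 (SE) higher and Jph2, which ties the calcium store to the cell membrane, 0.36 ± 0.13 higher, while Ampd1, the AMP deaminase of muscle, was 0.64 ± 0.18 lower (limma adjusted p = 0.0020, 0.040 and 0.0066). Of the 6 myogenic and regenerating muscle genes tested, the acetylcholine receptor subunit Chrna1 (0.71 ± 0.22) and the homeobox gene Six4 (0.77 ± 0.29) were higher and Musk (-0.20 ± 0.07) lower (limma adjusted p = 0.013, 0.042 and 0.034), 3 of 6 beside 26.5% of all genes. Musk was dim, at 3.64 to 4.70 over the tumors and above the array median on 9 of them.

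**Figure D4:**
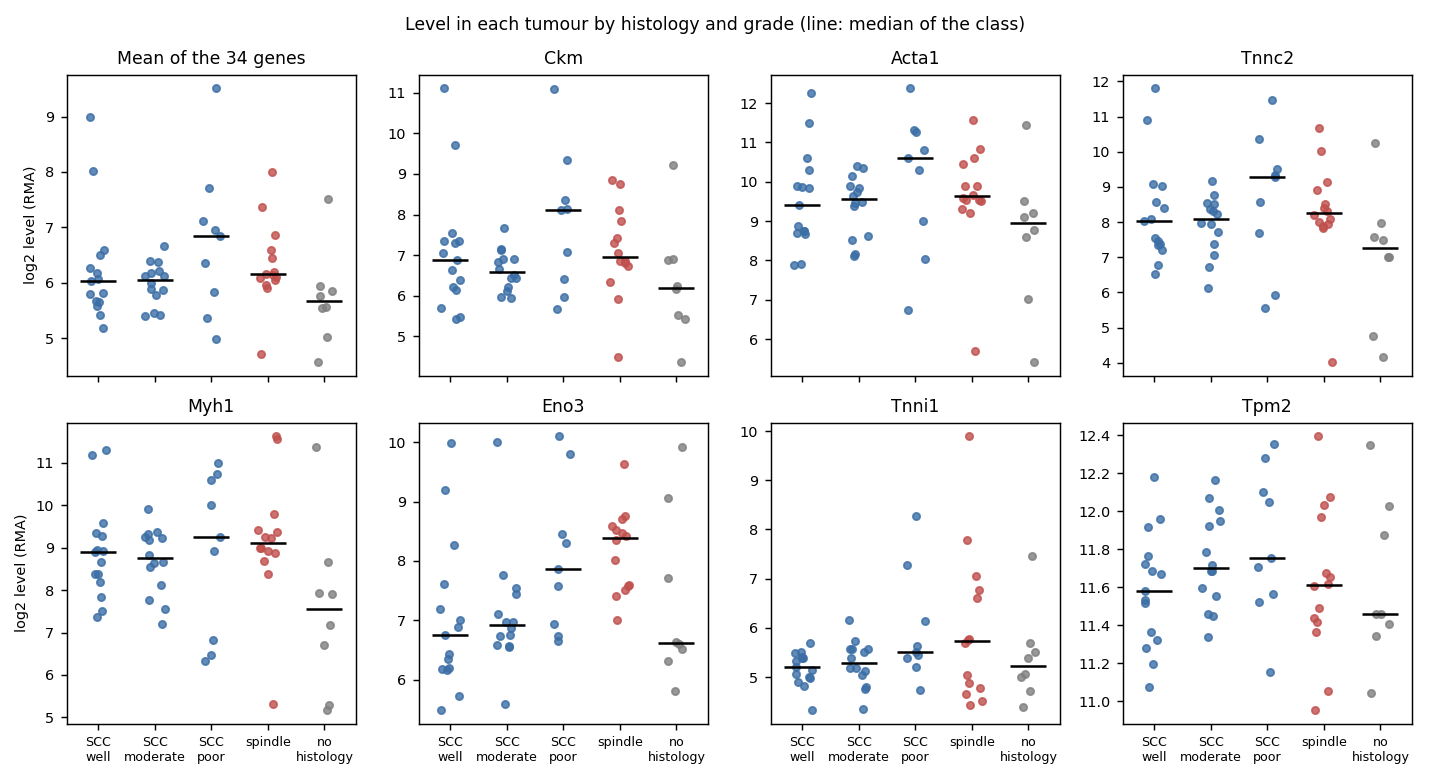
Log2 level in each tumor (points) with the median of each class (line), for the mean of the 34 genes and for 7 of them, in SCC by grade, spindle carcinoma and tumors with no histology label; each panel has its own scale. Ckm, Acta1, Tnnc2 and Myh1 overlap across classes with a wide spread in poorly differentiated SCC, and Eno3 lacks low values in spindle carcinoma (7.01 or more by mice).

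Muscle genes were next compared by grade within SCC. All 34 had a higher mean in the 9 poorly differentiated than in the 13 well differentiated mice, with a median difference of 0.62 beside 0.01 over all genes, but 0 of 32 passed the test, as did 0% of all genes. At an unadjusted p under 0.05, 5 were higher (Eno3, Tnni1, Des, Ryr1 and Tnnc1), beside 2.65% of all genes. Because the genes rise and fall together in a tumor, the shared sign is not 34 separate observations. Ckm ran from 5.68 through 8.11 to 11.09 in poor and from 5.43 through 6.62 to 10.42 in well differentiated SCC, so the poor grade held both high and low tumors and its median was the higher. Its difference was 0.93 ± 0.50 (SE; limma adjusted p = 0.89).

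Against the 13 moderately differentiated mice the poor grade was again higher for 34 of 34 genes (median 0.72 beside 0.02 over all genes). None of the 32 passed, with 0% of all genes called, and 12 had an unadjusted p under 0.05 beside 5.36% of all genes, among them Tnnc1 (0.98 ± 0.36, SE), Eno3 (1.07 ± 0.43), Tnni1 (0.67 ± 0.28) and Mybpc2 (1.20 ± 0.49). These counts moved with single mice. Without SCC 32 the 12 became 1 and the median 0.41, and without the mouse of SCC 3 and SCC 4 as well, which are not in either grade but enter the estimate of the spread, they were 8 and 0.41. Without SCC 6, SCC 36 and spindle 9, the arrays with the largest Gapdh 3′ minus 5′ difference, the 12 became 3 and the median 0.58. In the comparison with well differentiated SCC the 5 became 2 without SCC 32 (median 0.29), SCC 10, SCC 11 or SCC 13, 3 without SCC 25 or SCC 36, 9 without SCC 5, 13 without SCC 21, 16 without SCC 37 (median 0.87), 20 without the mouse of SCC 3 and SCC 4 (median 0.80) and 8 without that mouse and SCC 32 (median 0.46). Moderate and well differentiated SCC differed by a median of -0.10 with 9 of 34 genes higher and 0 called (0% of all genes; 0 of 32 at an unadjusted p under 0.05, limma).

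The spread within a grade was itself uneven. The mean of the 34 genes had a standard deviation of 1.36 over the 9 poor, 0.34 over the 13 moderate and 0.78 over the 13 well differentiated mice, and ranged from 4.98 to 9.51, 5.42 to 6.66 and 5.43 to 8.50. Without the mouse of SCC 3 and SCC 4 the well differentiated mice had a standard deviation of 0.33, and without SCC 32 the poor mice had 0.94. No test of the spread was made.

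Node positive mice were compared with node negative mice. The difference was above 0 for 27 of 34 genes, with a median of 0.23 beside 0.02 over all genes, and 0 of 32 passed (0% of all genes; 0 of 32 against 2.66% of all genes higher at an unadjusted p under 0.05, limma). Acta1 ran from 5.71 through 9.49 to 12.38 in the 15 positive and from 7.88 through 9.67 to 11.58 in the 19 negative mice, and Ckm from 4.48 through 6.62 to 11.09 and from 5.43 through 6.84 to 8.76. The positive mice therefore held both the highest and the lowest values, with lower medians. Over the 32 genes tested the median difference was 0.20, and it turned to -0.01 without SCC 32, to -0.22 without SCC 3 and SCC 4 as well, and to 0.04 without the arrays with the largest Gapdh difference. Markers of other cells were also shifted in node positive mice: all 5 endothelial genes (median 0.41, 2 at an unadjusted p under 0.05) and all 8 fibroblast genes (median 0.19) were above 0 and all 7 keratinocyte genes below it (median -0.52), with none called. Their part in the muscle values was not tested.

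Within SCC, with 10 positive and 14 negative mice, the median over the 32 genes tested was 0.55, and within spindle carcinoma, with 4 and 5 mice, it was -0.66. Ckm ran from 5.95 to 11.09 in node positive and from 5.43 to 8.12 in node negative SCC, and from 4.48 to 8.35 and from 6.72 to 8.76 in spindle carcinoma. The test of the difference between the histologies (interaction term) called 0 of 32 members, although 30 were below 0, with a median of -1.23, 4 at an unadjusted p under 0.05 and a smallest adjusted p of 0.67 (limma). The largest was Atp2a1 (-2.29 ± 0.93, SE).

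Resistant mice, with under 2 papillomas at 20 weeks, were compared with sensitive mice, with over 7. The mean was lower in the carcinomas of resistant mice for 33 of the 34 genes, Eno3 being the exception (0.10 ± 0.36, SE), and the median difference was -0.52 beside 0.00 over all genes. None of the 32 tested passed (0% of all genes), and 3 were lower at an unadjusted p under 0.05, Ttn (-0.99 ± 0.36), Myh1 (-0.99 ± 0.42) and Myh2 (-0.87 ± 0.36), beside 4.60% of all genes. With papillomas at 24 weeks it was 5 of 32 (6.23% of all genes in either direction), and as a slope on log2 papillomas over all 55 mice 13 of 32 (6.39% of all genes), again with none past the adjusted threshold (limma). Ttn ran from 3.77 through 5.76 to 7.85 in the 17 resistant and from 5.36 through 6.59 to 9.77 in the 16 sensitive mice, and 1 of 17 resistant mice was above the sensitive median. For Ckm the groups overlapped more, at 4.48 to 8.12 and 5.29 to 11.09 with medians of 6.66 and 6.95. Without SCC 32, a sensitive mouse, the median difference over the genes tested moved from -0.54 to -0.31. Other lists were lower in resistant mice too, with 0 of 7 fat genes (median -0.40), 0 of 5 endothelial (-0.29), 1 of 8 fibroblast (-0.29), 1 of 9 smooth muscle (-0.25) and 1 of 7 keratinocyte genes (-0.33) above 0 and none called. Their part in the muscle values was not tested.

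Carcinomas labelled p53 mutant were compared with all others. The median difference was -0.11 beside 0.01 over all genes, 11 of 34 genes were higher, and 0 of 32 passed (0.281% of all genes did; 0 of 32 at an unadjusted p under 0.05, limma). Myh1 had the smallest p, at -0.66 ± 0.40 (SE; limma adjusted p = 0.57), with 5.17 through 8.67 to 11.01 in the 14 mutant and 6.32 through 8.92 to 11.55 in the 41 other mice. The ranges overlapped over most of their length.

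**Figure D5:**
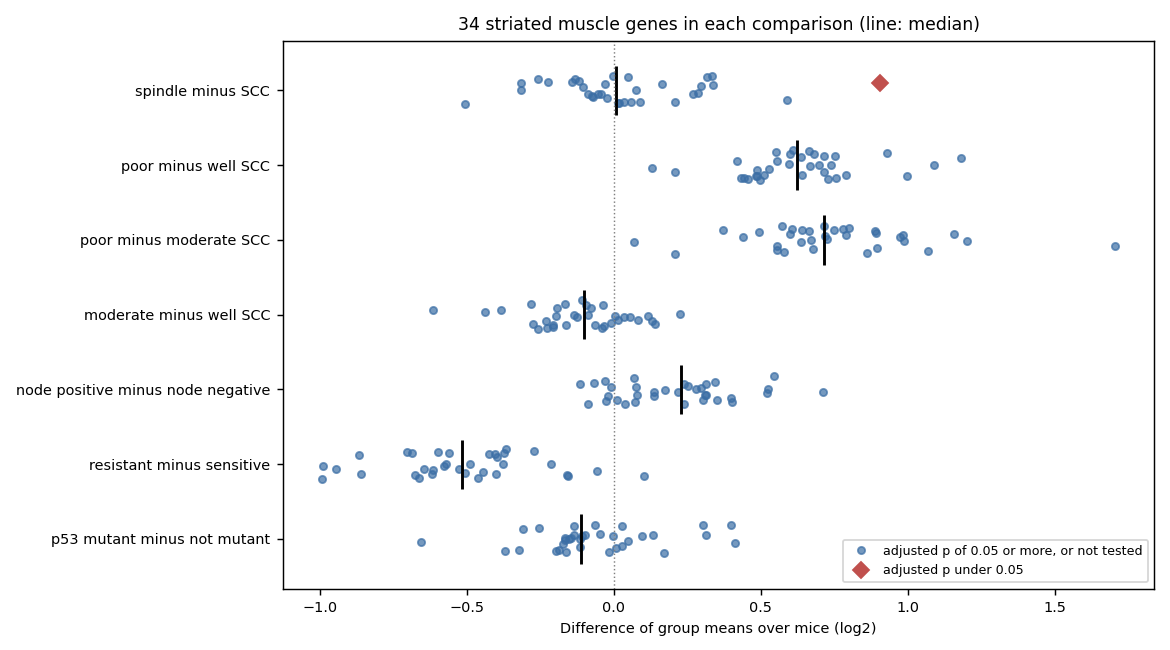
Difference of group means over mice (log2) for each of the 34 genes (points) in 7 comparisons, with the median as a line; the diamond is Eno3 (0.91) in spindle carcinoma against SCC, the 1 gene past an adjusted p of 0.05. The comparisons share mice and the genes move together, so the points are not independent.

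In 5 mice 2 carcinomas were measured. For SCC 3 and SCC 4, and for no histology 7 and no histology 6, the sample titles share a tumor number, so the labels do not settle whether these were separate tumors or parts of the same tumor, although the series counts each as a carcinoma. The tumor with more muscle signal exceeded the other by 0.97 (SCC 3 and SCC 4), 1.32 (SCC 8 and SCC 7), 0.78 (spindle 9 and spindle 8), 0.97 (SCC 23 and SCC 22) and 0.99 (no histology 7 and no histology 6) in the mean of the 34 genes. The median difference over 1765 pairs of tumors of different mice was 0.67, and all 5 pairs differed by more than this. Between 28 and 32 of the 34 genes moved the same way within each pair. Acta1 was at 12.26 and 11.48, 10.29 and 7.92, 10.84 and 10.62, 9.89 and 8.16, and 8.59 and 5.42, in the order above. SCC 22 is also 1 of the near-identical arrays. Spindle 8 and spindle 9, labelled as from the same male mouse, are both among the arrays whose sex markers went against their labels. Xist was at 10.56 in spindle 8 and 5.49 in spindle 9, and Y-linked transcripts averaged 5.92 and 3.53. Whether both arrays came from the same mouse was not tested. Spindle 9 is also among the arrays with the largest Gapdh 3′ minus 5′ difference. Eno3 went against the rest in 3 pairs, lower in the muscle-rich tumor by 1.16 in the spindle pair, by 2.56 in SCC 23 against SCC 22 and by 1.90 in the pair without histology. In these 3 pairs the tumor with more Eno3 was labelled tumor_class 1 and the other tumor_class 2. The remaining pairs each shared a tumor_class label. Its part in the Eno3 values was not tested.

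Markers of other tissues beside muscle were set against Ckm, Acta1 and Des over mice, as 21 relations with 100000 permutations each (2-sided, adjusted by Benjamini-Hochberg over the 21). Adipoq, the hormone adiponectin of fat cells, rose with Ckm (r = 0.695, rho = 0.564, n = 55, permutation p = 1e-05 and 2e-05, adjusted 5.25e-05 and 0.00021), and the r was 0.657 without the 2 mice farthest from the median of Adipoq. Within SCC it was 0.702 over 35 mice and within spindle carcinoma 0.55 over 13. For Acta1 the r was 0.609 (rho 0.56) and for Des 0.571 (rho 0.488), with permutation p of 1e-05 and 3e-05. The smallest p that the permutations can give is 1e-05.

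Myh11, the smooth muscle myosin, also rose with Ckm (r = 0.603, rho = 0.542), Acta1 (0.532, 0.452) and Des (0.607, 0.54), with adjusted permutation p between 5.25e-05 and 0.00192. Without the 2 farthest mice these were 0.527, 0.471 and 0.555. Col1a1, a collagen of fibroblasts, was related to Acta1 (r = 0.402, rho = 0.359, permutation p = 0.00263 and 0.0077, adjusted 0.00789 and 0.018) and Des (r = 0.388, rho = 0.452, permutation p = 0.00391 and 0.00064, adjusted 0.0103 and 0.00192), and to Ckm by rank (rho = 0.357, adjusted permutation p = 0.018) but not by r (0.285, adjusted permutation p = 0.0839). For Krt14, whose level differed between the histologies, the r with Ckm was -0.091 within SCC and 0.049 within spindle carcinoma. Papillomas at 20 weeks had an r of 0.199 with Ckm, 0.219 with Acta1 and 0.206 with Des (adjusted permutation p = 0.249, 0.226 and 0.248). Weeks to the first papilloma (r = -0.167, -0.031 and -0.102 over 51 mice) and the 3′ minus 5′ difference of Gapdh probe sets, a measure of RNA integrity (0.104, -0.012 and 0.122), passed with none of the 3 genes. Without the 2 farthest mice the Gapdh r was 0.191, 0.029 and 0.273 (unadjusted permutation p = 0.169, 0.835 and 0.0476). The Gapdh difference was 0.37 in SCC 3, 0.47 in SCC 4, 0.45 in spindle 1, 0.59 in SCC 36 and 0.54 in spindle 9. It was 0.02 in SCC 32 and 0.25 in no histology 5. The part of RNA integrity in the order of the tumors was not tested.

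The whole fat list moved in part with muscle. Of its 7 measured genes 4 had an r over 0.5 with the mean of the 34, Adipoq (0.68), Retn (0.62), Cidec (0.54) and Lep (0.51), while Fabp4, which other cells also make, had 0.08. The list's mean ran from 4.56 to 8.75, with SCC 32 the highest and no histology 5 at 7.53, but spindle 9, seventh for muscle, was the lowest of all for fat. Adipoq stood at 11.08 in SCC 32 and 6.50 in SCC 3 against a median of 4.55. Fat and muscle genes parted in spindle carcinoma against SCC. There 0 of 7 fat genes were above 0 (median -0.44), beside a median of 0.01 for the muscle genes. Of the 4 fat genes tested 2 were called lower (limma), beside 11.0% of all genes. For smooth muscle 2 of 9 genes had an r over 0.5, Synpo2 (0.87), which striated muscle makes too, and Myh11 (0.57), while Acta2, the smooth muscle actin, had 0.07. The 5 endothelial genes had r between 0.34 and 0.59, the 8 fibroblast genes between 0.27 and 0.47, and the 7 keratinocyte genes between 0.01 and 0.05. The part of fat, vessels or stroma in the muscle values was not tested.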

How the data were processed

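Total RNA of 60 carcinomas was hybridised by the authors to Affymetrix arrays, and the deposited values are log2 expression levels made with RMA per the labels; its version is not given in the sources used here. They were used as deposited. Of 45101 probe sets, 34958 had a single symbol in the platform annotation, 932 several and 9211 none, and 34754 matched RefSeq genes of GRCm38.p6. Each gene took its probe set of highest mean, and 13 of the 34 muscle genes had several. Array medians ran from 4.43 to 4.56, and the number of arrays limits the precision. Tumors of 1 mouse were averaged, and genes above the array's median on at least 8 arrays (12791) were tested with limma 3.58.1 in R 4.3.3 (lmFit, eBayes), all SCC grades in 1 model, with adjusted p under 0.05 called. The fit was tested on simulated data in which genes vary independently, so that check does not cover genes that move together. Alternatives changed the filter, probe sets, scaling, arrays, covariates and groups. The genes named are the members, the 12 genes most like them and some of the list genes past the threshold. Further list genes are named as markers of muscle formation or of other tissues, whether or not they passed it. The members and lists were chosen with earlier results of these data known. Python 3.11.15 gave permutations and plots.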

Additional observations from a re-analysis of the deposited data

Results flagged for a closer look

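In the 9 poorly differentiated SCC mice and the 7 mice with no histology label, each of the 34 genes was tested for a mouse far from the others, by its gap to the nearest over the group's range (68 tests, 19 past the limit of Dixon's test, which chance passes in about 1 in 20). In poorly differentiated SCC, SCC 32 stood apart at the top for the slow fiber genes Myh7 (ratio 0.877), Myl2 (0.888) and Tnnc1 (0.758), and for Actn3 (0.512), Myoz1 (0.505), Ldb3 (0.601) and Pygm (0.555). In the group without histology, no histology 5 stood apart at the top for Myh2 (0.639), Mybpc1 (0.683), Tnnt3 (0.612), Actn2 (0.743), Tcap (0.619), Ldb3 (0.78), Atp2a1 (0.597), Ckm (0.587), Pygm (0.726), Mb (0.634) and Cox6a2 (0.764), and no histology 8 for Tnni1 (0.575). Because the genes move together, these are few tumors and not 19 separate events.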

How the results depend on the processing

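The 1 muscle gene called in spindle carcinoma against SCC, Eno3, became 0 without the arrays whose sex markers went against their labels and 0 against poorly differentiated SCC alone, where 0% of all genes passed, and leaving out each mouse in turn gave 0 to 1. The difference of Eno3 was 0.89 and 0.07 in these cases and 0.83 to 0.87 without each of the 4 mice whose removal ended the call, and the cause was not tested. In the other 6 comparisons 0 members were called under every alternative run. The members' median difference for node status was 0.20, -0.01 without SCC 32, -0.22 without SCC 3 and SCC 4 as well, 0.55 in SCC and -0.66 in spindle carcinoma. For spindle against SCC it was 0.02, and -0.47 with poorly differentiated SCC alone. For p53 it was -0.10, and 0.09 in SCC. Leaving out each mouse in turn the median ran from -0.12 to 0.18 for spindle against SCC and from 0.29 to 0.87 for poorly against well differentiated SCC. The alternatives without SCC 32, and without SCC 3 and SCC 4 as well, were chosen after seeing the data. No paired analysis was possible because replicate numbers are given in accession order and pair no samples. Signal over background limits Myh7 and Myl2, above the array median on 2 and 1 arrays, and Myh4, on 17. It also limits Casq1, Tnnt1, Ldb3 and Neb, above the array median on 18, 19, 21 and 27 arrays.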
